A study of Homo sapiens with 12 samples.

Results

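Intermediate filament genes were examined in IMR90 cells treated with doxorubicin on a soft gel and on plastic. IMR90 is an established fibroblast line from human fetal lung. The set was given as a list of 9 gene symbols, matched by Ensembl identifier to 9 of the 61541 genes in the deposited tables. It held VIM (vimentin), NES (nestin), the keratin genes KRT7, KRT8, KRT18 and KRT19, the nuclear lamin genes LMNA and LMNB2, and PLEC, which encodes the linker protein plectin. Intermediate filaments are rope-like polymers that give a cell resistance to stretch. Vimentin is the main cytoplasmic filament protein of fibroblasts, keratins are typical of epithelia and assemble from pairs of a type I and a type II chain, and lamins form the meshwork under the inner nuclear membrane. Plectin ties filaments to each other, to actin and to adhesion sites, and A-type lamin is known for its relation to tissue stiffness.

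Polyadenylated RNA was measured in 12 libraries of wild-type IMR90 cells, 3 in each of 4 groups. Cells were on a 2 kPa gel with 250 nM doxorubicin, on plastic with 250 nM, on the gel with 100 nM, or on plastic with 100 nM. All 4 groups received the drug, a DNA-damaging anthracycline used to bring on senescence, for 24 h and were then kept for at least 8 days, and no untreated library was among the 12. The doses are in nM in the sample titles and in µM in the treatment protocol, and the soft substrate is a hydrogel in the titles and a PDMS coating in the growth protocol. The question named by the series is how stiffness of the substrate shapes the transcriptome of senescent lung fibroblasts.

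Libraries held 2229069 to 2730309 expected counts in the 250 nM groups, against 5887056 to 7351916 in the 100 nM groups. Molecular identifiers are mentioned in the file names of the 250 nM libraries alone, so dose and library set cannot be told apart in any comparison of doses below. Ribosomal DNA loci on chromosome 21 took 13.2% of counts in replicate 1 of gel at 250 nM and 14.3% in replicate 1 of plastic at 100 nM, and 24.2% to 30.7% in the other 10 libraries. Across genes the first of these correlated at a mean of 0.845 with its own group, against 0.895 to 0.958 in the other libraries. The labels do not say if replicates came from separate cultures, so p-values measure the spread between these libraries. All 8 fibroblast markers checked passed the expression filter, and their summed level was 849 to 1255 CPM (counts relative to library size) on gel and 3283 to 3808 on plastic at 250 nM, and 1066 to 1401 on gel and 3556 to 3946 on plastic at 100 nM. Whether that difference bears on the filament genes was not tested.

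CPM, expected counts scaled to library totals with edgeR's trimmed-mean (TMM) factors, serve to compare one gene between libraries. TPM, a measure of transcript abundance that also divides by transcript length, serve to rank genes. In TPM over the 12 libraries VIM led with 1178 ± 556 (SD, n = 12), followed by LMNA with 188 ± 38.3 and KRT18 with 49.1 ± 28.4. Then came KRT19 with 23.2 ± 9.32 TPM, KRT8 with 19.4 ± 7.21 and NES with 18.3 ± 8.11. PLEC with 4.39 ± 0.711 TPM, LMNB2 with 3.05 ± 1.66 and KRT7 with 1.87 ± 0.844 were lowest. The first 3 places were the same in all 4 groups, and the 3 libraries of VIM and LMNA, and of LMNA and KRT18, did not overlap in TPM in any group. KRT19 and KRT8 overlapped in TPM in all 4 groups. NES ranked below KRT8 and KRT19 by mean TPM in both 250 nM groups and above them in both 100 nM groups, where it overlapped KRT18 and KRT19. VIM took 0.0976% to 0.373% of a library's counts.

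**Figure D1:**
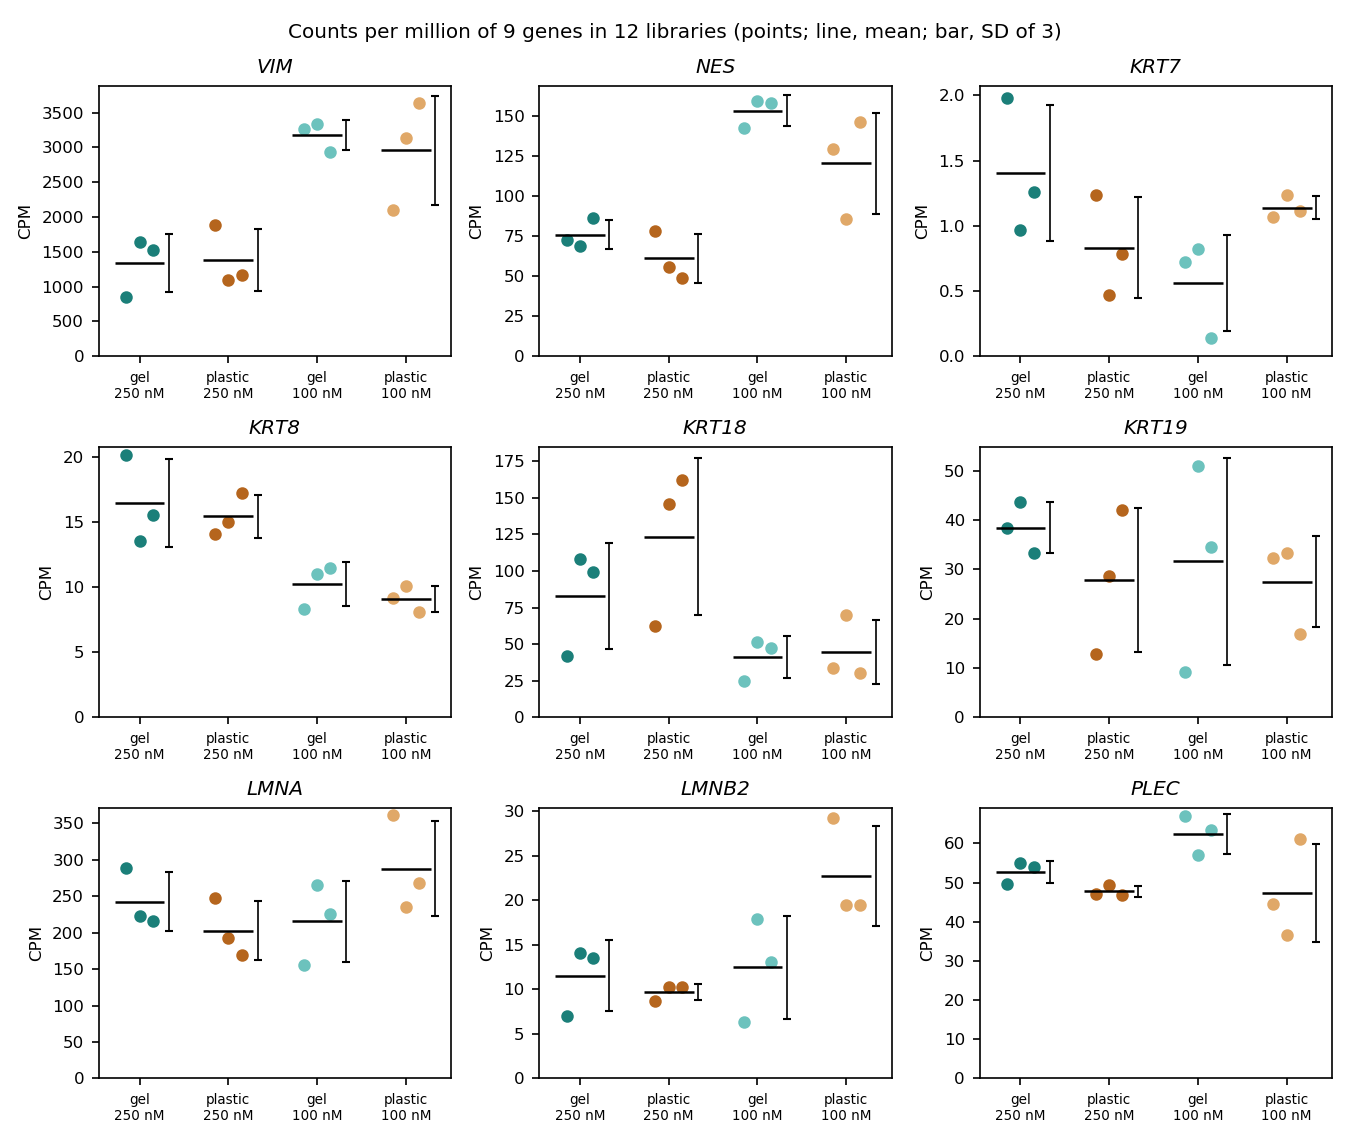
Level of the 9 genes in CPM (vertical axes, linear and from 0) in each of the 12 libraries (points), by group, with the mean (line) and SD of 3 libraries (bar). VIM and NES points at 250 nM lie below all points at 100 nM on the same substrate, and KRT8 points at 250 nM lie above them.

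No filament gene of the set was called between gel and plastic. Of the 8 genes that passed the expression filter, 0 were called at 250 nM, where 0.00811% of the 12329 genes tested were called, and 0 at 100 nM, where 0.219% were (edgeR quasi-likelihood test, Benjamini-Hochberg adjusted p under 0.05). With the substrates compared over both doses 0 of 8 were called against 0.795% of all genes, and for the difference in gel effect between doses 0 of 8 against 0.0%. At an unadjusted edgeR p under 0.05 there were 0 genes of the set at 250 nM, 1 (LMNB2) at 100 nM, 0 over both doses and 0 for the difference. Of all 12329 genes tested, 1224 were under it at 250 nM, 1216 at 100 nM, 1533 over both doses and 771 for the difference. DESeq2, limma-voom and limma on log2 TPM also called 0 in each. The median log2 change of the 8 was 0.18 at 250 nM and 0.14 at 100 nM, against -0.02 and -0.01 over all genes. With so few genes called in all, these counts are at the background, and the interval of each gene's difference is given below.

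**Figure D2:**
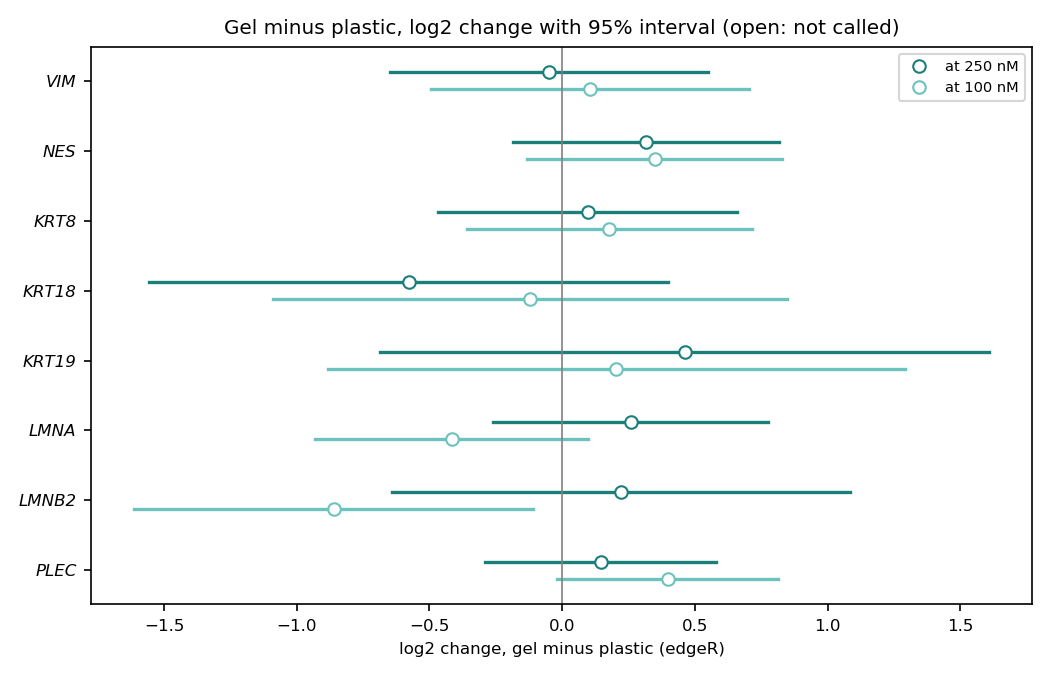
Log2 change, gel minus plastic (horizontal axis), of the 8 tested genes (rows) with its 95% interval, at 250 nM (dark) and at 100 nM (light); open points were not called. All intervals cross 0 other than that of LMNB2 at 100 nM, which runs from -1.61 to -0.11 and is not adjusted for the number of genes tested.

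VIM and NES both fell at 250 nM relative to 100 nM on each substrate, and neither was called between gel and plastic. VIM (ENSG00000026025, chromosome 10, 17228259 to 17237593, plus strand, GRCh38) encodes the type III filament protein that fills the fibroblast cytoplasm. On gel VIM stood at 858, 1638 and 1521 CPM at 250 nM, against 3266, 3337 and 2933 CPM at 100 nM. On plastic it stood at 1891, 1094 and 1168 CPM at 250 nM, against 2103, 3129 and 3636 CPM at 100 nM. Every 250 nM library was below every 100 nM library on its substrate, and on plastic the gap between the nearest libraries was small.

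VIM fell 2.37-fold with dose on gel, to 1339 ± 421 CPM at 250 nM against 3178 ± 216 CPM at 100 nM (SD, n = 3 each; edgeR log2 change -1.25, 95% interval -1.86 to -0.64, adjusted p = 0.0141). On plastic it fell 2.13-fold, to 1384 ± 440.1 CPM at 250 nM against 2956 ± 781 CPM at 100 nM (edgeR log2 change -1.09, interval -1.70 to -0.49, adjusted p = 0.0304). In this bulk RNA, fewer cells of a kind and less RNA per cell cannot be told apart. The difference between the 2 falls was not called (log2 difference -0.15, interval -1.0 to 0.69, edgeR adjusted p = 0.941). VIM overlaps the antisense gene VIM-AS1, which had at most 12 counts in a library. Between substrates the log2 change of VIM was -0.05 at 250 nM (interval -0.65 to 0.55) and 0.10 at 100 nM (-0.49 to 0.70). The fall on gel lost its call without replicate 1 of both gel groups (log2 change -0.99, edgeR adjusted p = 0.0516), and that on plastic without replicate 2 or 3 of either plastic group (adjusted p from 0.0783 to 0.156). Without both libraries of low ribosomal DNA share the log2 changes were -1.03 on gel (adjusted p = 0.00759) and -1.28 on plastic (edgeR adjusted p = 0.00168).

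NES (ENSG00000132688, chromosome 1, 156668763 to 156677397, minus strand) encodes nestin, a long type IV filament protein that co-assembles with vimentin and is best known from neural progenitors. On gel NES stood at 72.4, 68.9 and 86.0 CPM at 250 nM, against 142, 159 and 158 CPM at 100 nM. On plastic it stood at 78.2, 55.9 and 48.7 CPM at 250 nM, against 129, 85.5 and 146 CPM at 100 nM. The dose groups did not overlap on either substrate. NES fell 2.02-fold with dose on gel, to 75.8 ± 9.0 CPM at 250 nM against 153 ± 9.68 CPM at 100 nM (SD, n = 3 each; edgeR log2 change -1.02, 95% interval -1.51 to -0.52, adjusted p = 0.0140). On plastic it fell 1.98-fold, to 60.9 ± 15.4 CPM at 250 nM against 120.4 ± 31.3 CPM at 100 nM (edgeR log2 change -0.98, interval -1.48 to -0.49, adjusted p = 0.0212). With a per-library trend on transcript length removed, an alternative chosen after seeing the data, the call on gel was lost (log2 change -0.65, edgeR adjusted p = 0.0577) and that on plastic held (-0.86, adjusted p = 0.0261). Without both libraries of low ribosomal DNA share NES was at -1.01 on gel and -0.92 on plastic, and both were called (edgeR adjusted p = 0.0173 and 0.0183). The plastic call was also lost without replicate 1 or 3 of plastic at 100 nM or replicate 2 or 3 of plastic at 250 nM (edgeR adjusted p from 0.0563 to 0.124). Between substrates NES had a log2 change of 0.31 at 250 nM (interval -0.19 to 0.82), 0.35 at 100 nM (-0.13 to 0.83) and 0.33 over both doses (-0.02 to 0.68).

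With VIM and NES, 2 of the 8 tested genes were called with dose on gel, where 13.8% of all genes were called and 6.89% were called lower, and 2 of 8 on plastic, where 8.61% were called and 4.52% lower. The median log2 change of the 8 was 0.01 on gel and -0.25 on plastic, against -0.02 and -0.03 over all genes. Averaged over both substrates, a comparison chosen after seeing the data, 4 of 8 were called against 27.6% of all genes: VIM and NES lower (14.5% of all genes) and KRT8 and KRT18 higher (13.1%).

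**Figure D3:**
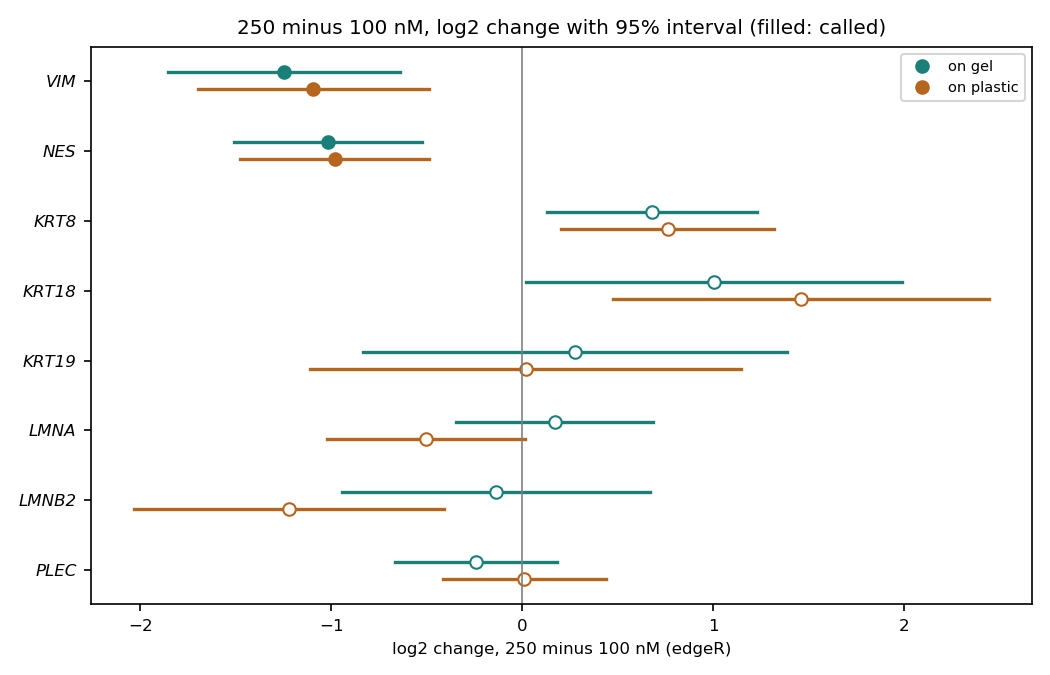
Log2 change, 250 minus 100 nM (horizontal axis), of the 8 tested genes (rows) with its 95% interval, on gel (green) and on plastic (brown); filled points were called at an adjusted p under 0.05. VIM and NES are filled on both substrates, and KRT8 and KRT18 lie right of 0 on both with open points.

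The 250 bases before the start of VIM and NES are shown because these were the 2 genes called lower at 250 nM on both substrates. They come from RefSeq on GRCh38.p14, are written 5′ to 3′ on the gene's strand, and capitals mark the GC box GGGCGG found on either strand. The VIM window is chr10:17227991-17228240 (plus strand) and the NES window chr1:156677408-156677657 (minus strand).
VIM: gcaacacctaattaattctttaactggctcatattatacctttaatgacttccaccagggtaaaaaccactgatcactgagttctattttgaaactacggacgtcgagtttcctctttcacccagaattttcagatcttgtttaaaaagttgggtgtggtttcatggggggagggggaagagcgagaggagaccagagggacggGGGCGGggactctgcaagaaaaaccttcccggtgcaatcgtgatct
NES: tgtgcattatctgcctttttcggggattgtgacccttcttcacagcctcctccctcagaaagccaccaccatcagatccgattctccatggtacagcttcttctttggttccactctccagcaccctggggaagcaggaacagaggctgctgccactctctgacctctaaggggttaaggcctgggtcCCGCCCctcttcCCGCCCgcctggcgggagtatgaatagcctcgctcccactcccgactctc
VIM held 1 GC box and NES held 2, a motif of 42.6% of the 35116 promoter windows of this length. The letters CCAAT (32.0% of windows) and TATAAA (10.7%), searched on both strands, were in neither window. KRT8 and LMNB2 also had 1 window each and LMNA had 3, while KRT7, KRT18, KRT19 and PLEC were not matched.

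Of the 4 keratin genes, KRT8 and KRT18 were higher at 250 nM than at 100 nM when both substrates were averaged, KRT19 was not called, and KRT7 was near the limit of detection. None was called between gel and plastic. Keratins 8 and 18 are known from simple epithelia and also occur at low levels in some cultured fibroblasts. Of 11 epithelial markers that are not in the set, 1 passed the filter, CLDN4 at a mean of 2.95 CPM, and CLDN3, GRHL2, ESRP1, SFTPC, SCGB1A1, KRT5 and KRT14 had 0 counts in all 12 libraries. Their summed level at 250 nM was 4.21 to 15.9 CPM on gel, with a median of 4.86 CPM, and 1.57 to 3.72 CPM on plastic. The value of 15.9 CPM thus came from 1 library. At 100 nM the summed level was 2.28 to 4.26 CPM on gel and 2.01 to 3.74 CPM on plastic. Of 6 mesothelial markers, 1 passed, CALB2 at 2.36 CPM, with UPK3B and ITLN1 at 0 counts. Of the smooth muscle and pericyte list, 4 of 6 genes passed and 0 were at 0 counts in all libraries. DES and MYH11 were its lowest genes, at means of 0.683 and 0.409 CPM. The list differed both with dose and between gel and plastic. Its summed level was 320 to 386 CPM at 250 nM against 120 to 222 CPM at 100 nM on gel, and 469 to 675 CPM at 250 nM against 256 to 435 CPM at 100 nM on plastic, led by ACTA2. The part of these marker levels in the keratin values was not tested.

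KRT8 (ENSG00000170421, chromosome 12, 52897187 to 52949954, minus strand) encodes the type II partner of keratin 18. On gel KRT8 stood at 20.2, 13.6 and 15.6 CPM at 250 nM, against 8.34, 11 and 11.5 CPM at 100 nM. On plastic it stood at 14.1, 15 and 17.3 CPM at 250 nM, against 9.21, 10.1 and 8.07 CPM at 100 nM. All 6 libraries at 250 nM were above all 6 at 100 nM, on counts of 28 to 61 per library at 250 nM and 46 to 81 at 100 nM. On each substrate alone the gene was not called, with a log2 change of 0.68 on gel (95% interval 0.13 to 1.23, edgeR adjusted p = 0.0906) and 0.76 on plastic (0.20 to 1.32, adjusted p = 0.0809). Averaged over both substrates KRT8 rose 1.65-fold (edgeR log2 change 0.72, interval 0.33 to 1.11, adjusted p = 0.0104). That call was lost with no filter on low counts and on log2 TPM (adjusted p from 0.0714 to 0.0833), and held without both libraries of low ribosomal DNA share (0.62, edgeR adjusted p = 0.0217). With all libraries thinned to the smallest total by a random draw, the KRT8 log2 change with dose was 1.47 on plastic and 0.46 on gel. Neither was called (edgeR adjusted p = 0.0535 and 0.492). Gel differed from plastic by a log2 change of 0.10 at 250 nM (interval -0.47 to 0.66) and 0.18 at 100 nM (-0.36 to 0.72).

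KRT18 (ENSG00000111057, chromosome 12, 52948871 to 52952901, plus strand) encodes the type I partner of keratin 8. On gel KRT18 stood at 41.6, 108 and 99.0 CPM at 250 nM, against 24.7, 51.3 and 47.2 CPM at 100 nM. On plastic it stood at 62.1, 146 and 162 CPM at 250 nM, against 33.9, 70.0 and 30.4 CPM at 100 nM. In both 250 nM groups and on gel at 100 nM replicate 1 was well below the other 2 libraries, and the doses overlapped on both substrates. The log2 change with dose was 1.00 on gel (95% interval 0.02 to 1.99, edgeR adjusted p = 0.152) and 1.46 on plastic (0.47 to 2.44, adjusted p = 0.0635), neither called. The change on plastic was called in 6 of 28 alternatives, and that on gel in 1 of 28. A replicate block in the fit gave the call on both substrates. Averaged over both substrates KRT18 rose 2.35-fold (edgeR log2 change 1.23, interval 0.54 to 1.93, adjusted p = 0.0136), and stayed called in all 27 alternatives (adjusted p from 0.000168 to 0.0445). Between substrates the intervals were wide, with a log2 change of -0.58 at 250 nM (-1.56 to 0.40) and -0.12 at 100 nM (-1.09 to 0.85).

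The annotation lists 67 pseudogenes of KRT18, of which 17 had counts, and 51 of KRT8, of which 4 had counts. KRT18 counts were fractional in 12 of 12 libraries and KRT8 counts in 2 of 12. KRT18 pseudogenes held a median of 3.25% of the summed counts of gene and pseudogenes, and up to 20.8% in replicate 1 of gel at 250 nM. With pseudogene counts added to the gene, the log2 change of KRT18 with dose was 1.05 on gel and 1.48 on plastic. KRT8 and KRT18 also overlap on opposite strands by 1084 bases, and the strand setting of the counting is not given in the sources used here. In TPM the ratio of KRT18 to KRT8 was 0.825, 4.35 and 3.83 on gel and 2.34, 3.54 and 3.81 on plastic at 250 nM. At 100 nM it was 1.29, 2.10 and 1.97 on gel and 1.72, 3.25 and 1.69 on plastic. The TPM ratio was below 1 in 1 library, replicate 1 of gel at 250 nM, and the groups overlapped in every comparison. In CPM, which is not divided by length, the ratio of that library was 2.07. Its mean KRT8 transcript length was 625 bases, against 857 and 927 bases in its group.

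KRT19 (ENSG00000171345, chromosome 17, 41523617 to 41528308, minus strand) encodes the smallest type I keratin, which lacks the tail domain. On gel KRT19 stood at 38.3, 43.7 and 33.3 CPM at 250 nM, against 9.25, 51.0 and 34.5 CPM at 100 nM. On plastic it stood at 12.8, 28.6 and 42.0 CPM at 250 nM, against 32.3, 33.3 and 16.9 CPM at 100 nM. Single libraries spread over more than the groups did, and all 4 groups overlapped. The log2 change with dose was 0.28 on gel (95% interval -0.83 to 1.38) and 0.02 on plastic (-1.11 to 1.14), and that of gel against plastic 0.46 at 250 nM (-0.68 to 1.61) and 0.20 at 100 nM (-0.88 to 1.29). KRT7 (ENSG00000135480, chromosome 12, 52232520 to 52252186, plus strand), a type II keratin of glandular epithelia, did not pass the filter. It had 6, 2 and 3 counts on gel and 3, 1 and 2 on plastic at 250 nM, and 4, 6 and 1 on gel and 8, 8 and 7 on plastic at 100 nM, which is too few to compare groups.

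The lamin genes of the set passed no test at the adjusted threshold, and both had their highest mean level on plastic at 100 nM. LMNA (ENSG00000160789, chromosome 1, 156082573 to 156140089, plus strand) gives rise to lamins A and C by splicing, which gene-level values do not separate. At 250 nM LMNA stood at 289, 223 and 216 CPM on gel, against 247, 193 and 169 CPM on plastic. At 100 nM it stood at 156, 266 and 226 CPM on gel, against 361, 235 and 268 CPM on plastic. The groups overlapped at both doses. Gel differed from plastic by a log2 change of 0.26 at 250 nM (95% interval -0.26 to 0.78) and -0.42 at 100 nM (-0.93 to 0.10), and by -0.08 over both doses (-0.44 to 0.29). The difference between those 2 values was 0.67 (interval -0.06 to 1.41, edgeR adjusted p = 0.755), and 0.30 without both libraries of low ribosomal DNA share, which held the most LMNA at their dose. With dose the log2 change was 0.17 on gel (-0.35 to 0.69) and -0.51 on plastic (-1.02 to 0.01, edgeR adjusted p = 0.205).

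The deposited tables give each gene a mean transcript length per library, weighted by the abundance of its transcripts as RSEM estimated them, and 42 LMNA transcripts are listed. Of these, 23 are in GENCODE 29, with lengths of 285 to 3190 bases. The weighted length of LMNA was 1435, 1116 and 1124 bases on gel and 1183, 1146 and 1146 bases on plastic at 250 nM. At 100 nM it was 1248, 1412 and 1329 bases on gel and 1625, 1453 and 1372 bases on plastic. The longest value at each dose came from the library of low ribosomal DNA share. On plastic the doses did not overlap in length, on gel they did, and no test was run on this quantity.

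**Figure D4:**
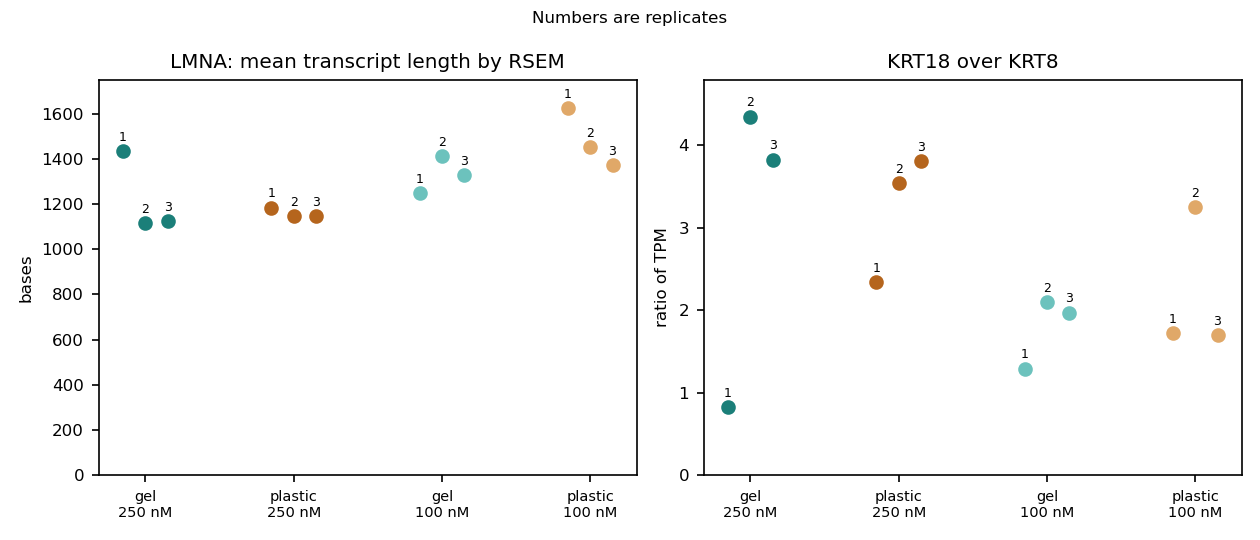
Left, abundance-weighted mean transcript length of LMNA in bases as deposited; right, ratio of KRT18 to KRT8 in TPM; both axes start at 0, and points are libraries numbered by replicate within the 4 groups. Replicate 1 of gel at 250 nM has an LMNA length of 1435 bases against 1116 and 1124 in its group, and a keratin ratio of 0.825 against 4.35 and 3.83.

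LMNB2 (ENSG00000176619, chromosome 19, 2427638 to 2456996, minus strand) encodes lamin B2, a B-type lamin that stays attached to the membrane through its lipid anchor. At 250 nM LMNB2 stood at 6.94, 14.1 and 13.5 CPM on gel, against 8.69, 10.3 and 10.2 CPM on plastic. At 100 nM it stood at 6.35, 17.9 and 13.1 CPM on gel, against 29.2, 19.5 and 19.5 CPM on plastic. Plastic at 100 nM was above all 9 other libraries. Gel differed from plastic at 100 nM by a log2 change of -0.86 (95% interval -1.61 to -0.11, edgeR unadjusted p = 0.0278, adjusted p = 0.447) and at 250 nM by 0.22 (-0.64 to 1.08). The difference between the 2 was 1.08 (interval -0.06 to 2.23, edgeR adjusted p = 0.755). With dose the log2 change was -0.14 on gel (-0.95 to 0.67) and -1.22 on plastic (-2.03 to -0.41, edgeR adjusted p = 0.0598). The change on plastic with dose and that of gel at 100 nM share the plastic libraries at 100 nM. The dose change on plastic was called in 6 of 28 alternatives, DESeq2 among them (adjusted p = 0.0295). At 250 nM LMNB2 rested on 21 to 32 counts per library, and its last 257 bases overlap TIMM13 on the same strand.

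In TPM there was far more LMNA than LMNB2. The ratio of LMNA to LMNB2 was 140.3, 70.0 and 70.0 on gel and 117, 80.1 and 70.7 on plastic at 250 nM, and 96.1, 51.0 and 62.7 on gel and 36.4, 40.0 and 48.7 on plastic at 100 nM. At 100 nM every gel library lay above every plastic library, and on plastic every 250 nM library lay above every 100 nM library. Both comparisons share the plastic libraries at 100 nM, and no test was run on this ratio. LMNB1, the other B-type lamin gene and not in the set, is widely used as a marker that is low in senescent cells. It fell with dose on plastic, to 4.80 ± 4.57 CPM at 250 nM against 53.8 ± 21.7 CPM at 100 nM (SD, n = 3 each; edgeR log2 change -3.48, 95% interval -5.00 to -1.96, adjusted p = 0.0128). On gel it averaged 4.75 ± 4.63 CPM at 250 nM and 16.5 ± 7.68 CPM at 100 nM (SD, n = 3 each; edgeR log2 change -1.70, adjusted p = 0.114). The difference between the dose changes of LMNB1 on gel and on plastic was not called (log2 difference 1.78, edgeR adjusted p = 0.757).

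PLEC (ENSG00000178209, chromosome 8, 143915147 to 143976734, minus strand), the gene of the giant linker plectin, varied little between libraries at 250 nM and was called in no comparison. At 250 nM PLEC stood at 49.6, 54.9 and 53.9 CPM on gel, against 47.2, 49.3 and 46.7 CPM on plastic. At 100 nM it stood at 66.9, 57.0 and 63.3 CPM on gel, against 44.4, 36.6 and 61.1 CPM on plastic. Gel libraries lay above plastic libraries at 250 nM by a narrow gap, and overlapped them at 100 nM. The log2 change of gel against plastic was 0.14 at 250 nM (95% interval -0.29 to 0.58), 0.40 at 100 nM (-0.02 to 0.82, edgeR adjusted p = 0.529) and 0.27 over both doses (-0.03 to 0.57). With dose it was -0.24 on gel (-0.67 to 0.18), where the groups did not overlap, and 0.01 on plastic (-0.42 to 0.44).

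A list of 81 related genes outside the set was followed, of which 36 were tested. Between gel and plastic 0 of the 36 were called, where 0.00811% of all genes were called at 250 nM, 0.219% at 100 nM, 0.795% over both doses and 0.0% for the difference, so the count is at the background. With dose, 2 rose and 5 fell on gel, where 13.8% of all genes were called. On plastic 1 rose and 2 fell, where 8.61% were called. Averaged over both substrates 4 rose and 6 fell, where 27.6% were called. All these counts are near the background. The median log2 change of the 36 with dose was -0.01 on gel and 0.12 on plastic, against -0.02 and -0.03 over all genes. Of 34 other keratin genes 3 were tested and 22 had 0 counts in all 12 libraries. KRT10, a type I keratin of differentiating epidermis, averaged 84.6 ± 16.9 CPM on gel and 104 ± 21.3 CPM on plastic at 250 nM, and 66.9 ± 13.0 CPM on gel and 92.5 ± 29.7 CPM on plastic at 100 nM (SD, n = 3 each), with no call. KRT34, a type I hair keratin, rose with dose on gel, to 27.6 ± 3.86 CPM at 250 nM against 9.93 ± 1.84 CPM at 100 nM (SD, n = 3 each; edgeR log2 change 1.47, adjusted p = 0.0232). On plastic KRT34 averaged 13.4 ± 4.37 CPM at 250 nM and 6.31 ± 3.99 CPM at 100 nM (edgeR adjusted p = 0.104). Its dose changes on gel and on plastic were not called different (log2 difference 0.38, edgeR adjusted p = 0.882).

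Of 10 other type III and IV filament genes 4 were tested. INA, the gene of alpha-internexin, averaged 15.8 ± 6.17 CPM on gel and 12.5 ± 1.24 CPM on plastic at 250 nM, and 9.66 ± 3.31 CPM on gel and 5.84 ± 1.71 CPM on plastic at 100 nM (SD, n = 3 each). Its log2 change with dose was 0.70 on gel and 1.09 on plastic (edgeR adjusted p = 0.203 and 0.0813). Averaged over both substrates, the change of INA was 0.90 and called (edgeR adjusted p = 0.0205). NEFH, the heavy neurofilament gene, was at mean levels of 2.43 to 4.6 CPM with no call. SYNM, the gene of the vimentin and desmin partner synemin, fell with dose on gel (log2 change -2.50, edgeR adjusted p = 0.0436) at mean levels of 0.928 CPM at 250 nM and 4.89 CPM at 100 nM. On plastic SYNM averaged 3.77 CPM at 250 nM and 2.99 CPM at 100 nM (log2 change 0.34, edgeR adjusted p = 0.783). The difference between its dose changes on gel and on plastic was not called (log2 difference -2.83, edgeR adjusted p = 0.755).

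Among 13 genes of lamin processing and lamina binding, 12 were tested. TMPO, the gene of the lamina-associated LAP2 proteins, fell with dose on gel (log2 change -1.37, edgeR adjusted p = 0.0204) and on plastic (-1.24, adjusted p = 0.0350). FNTA, a subunit of the farnesyltransferase that lipidates prelamin A and B-type lamins, rose on gel (0.69, edgeR adjusted p = 0.0303). On plastic FNTA was at 0.37 and not called (edgeR adjusted p = 0.250). The difference between its dose changes on gel and on plastic was not called (log2 difference 0.32, edgeR adjusted p = 0.813). EMD, the gene of emerin, and ZMPSTE24, the protease that matures prelamin A, were not called. EMD averaged 71.8 ± 50.2 CPM on gel and 35.6 ± 10.4 CPM on plastic at 250 nM, and 53.4 ± 7.12 CPM on gel and 80.8 ± 26.6 CPM on plastic at 100 nM (SD, n = 3 each). ZMPSTE24 averaged 45.1 ± 2.97 CPM on gel and 47.4 ± 5.26 CPM on plastic at 250 nM, and 59.5 ± 3.38 CPM on gel and 51.5 ± 6.34 CPM on plastic at 100 nM (SD, n = 3 each). SYNM, TMPO and FNTA were named after their values were seen.

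All 6 listed genes of, or acting on, the LINC complex, which joins lamina and cytoskeleton across the nuclear envelope, were tested. SYNE1, the gene of nesprin 1, fell with dose on gel (log2 change -1.38, edgeR adjusted p = 0.0495) and was at -0.26 on plastic (adjusted p = 0.742). TOR1A, the gene of torsin A, rose on plastic (0.64, edgeR adjusted p = 0.0407). On gel TOR1A was at 0.53 (edgeR adjusted p = 0.0597), near its value on plastic. Among plakins and desmosomal linkers, 5 of 11 were tested. DST, the gene of dystonin, stood at 331 ± 191 CPM at 250 nM against 827 ± 174 CPM at 100 nM on gel (SD, n = 3 each), and fell (log2 change -1.32, edgeR adjusted p = 0.0365). On plastic the log2 change of DST was -0.34 (edgeR adjusted p = 0.613). MACF1, the gene of a spectraplakin that joins actin and microtubules, fell on gel as well (-0.85, edgeR adjusted p = 0.0299), and on plastic its log2 change was 0.03 (adjusted p = 0.962). For SYNE1, DST and MACF1 the difference between the dose changes on gel and on plastic was not called. The log2 differences were -1.12, -0.98 and -0.88 (edgeR adjusted p = 0.757, 0.757 and 0.755). Of 6 filament chaperone and turnover genes, 5 were tested and 0 called with dose, against 13.8% of all genes on gel and 8.61% on plastic, a share that 0 of 5 cannot be told from. HSPB1, a small heat shock protein gene, was at 283 ± 29 CPM on gel and 211 ± 5.80 CPM on plastic at 250 nM, and 227 ± 43.6 CPM on gel and 314 ± 44.6 CPM on plastic at 100 nM (SD, n = 3 each).

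The log2 change with dose differed between classes of transcript length, more so on gel. The median log2 change of tested genes was 0.26 for those under 1000 bases and -0.36 for those over 8000 bases on gel, against 0.00 and -0.10 on plastic. On gel it was -0.10 for 2000 to 4000 bases and -0.26 for 4000 to 8000 bases. Of the related genes called lower on gel, TMPO had a mean length of 2073 bases, MACF1 3761, DST 4539, SYNM 4997 and SYNE1 6205. What part length had in these falls was not tested. VIM, at 1864 to 1949 bases, was far below the median of its length class (0.06 on gel for 1000 to 2000 bases), and PLEC lay near that of the longest class. With the length trend removed VIM was at -1.16 on gel (edgeR adjusted p = 0.0131) and -1.02 on plastic (adjusted p = 0.0293), and PLEC at 0.24 on gel and 0.14 on plastic, so the sign for PLEC on gel depends on it.

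**Figure D5:**
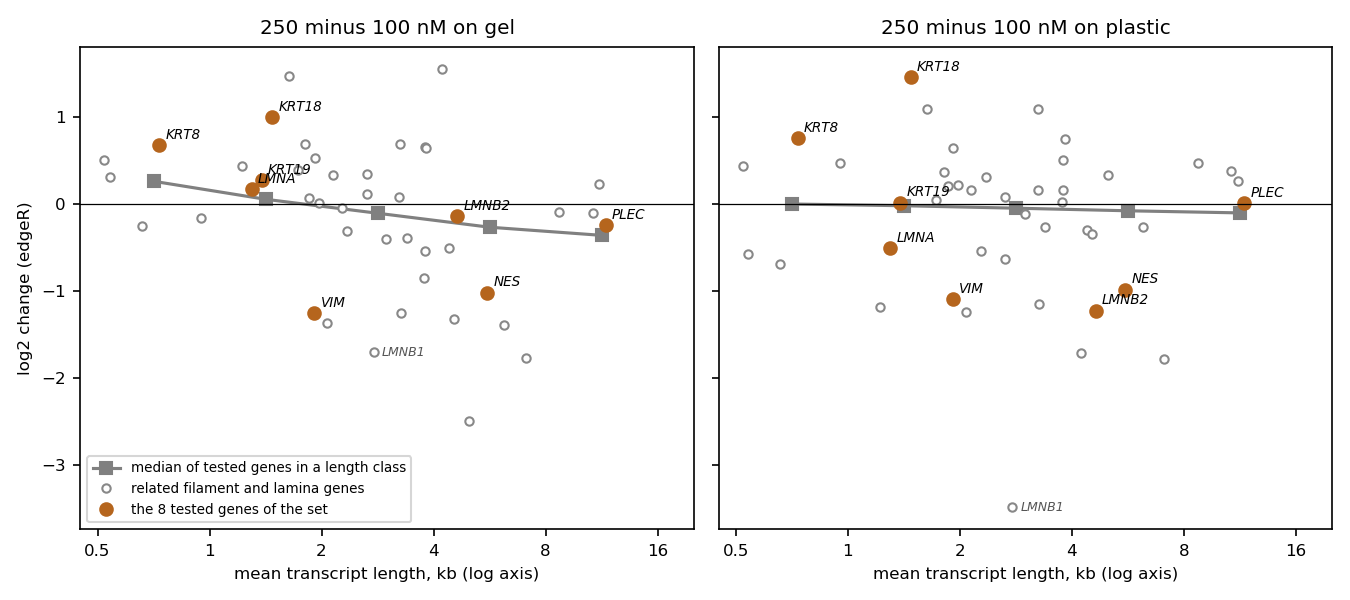
Log2 change, 250 minus 100 nM (vertical axis), against mean transcript length in kb (horizontal log axis) on gel and on plastic, for the 8 tested genes of the set, the 36 tested related genes, and the median of all tested genes in 5 length classes (squares). The class medians run from 0.26 to -0.36 on gel and from 0.00 to -0.10 on plastic, and VIM lies below them in both panels.

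Genes most like each filament gene over the 12 libraries were listed by the Pearson correlation of log2 CPM after the mean of each dose was subtracted, among 8964 protein-coding genes with a mean of at least 5 CPM. These values describe libraries that share depth and group, and the top of so many genes is high by selection. VIM was most like ROBO1 (r = 0.924), PARP4 (0.914) and CAMSAP1 (0.912), and NES most like TRIB1 (0.873), WDR73 (0.868) and NOTCH1 (0.863). KRT8 was most like TIMM22 (0.910), WBP2 (0.897) and DEXI (0.894), KRT18 most like ATP6V0E1 (0.965), CELF2 (0.962) and NMD3 (0.955), and KRT19 most like C6orf120 (0.940), ANAPC13 (0.935) and HADHB (0.923). LMNA was most like JDP2 (0.946), an unnamed gene ENSG00000254732 (0.945) and TRIP6 (0.924), LMNB2 most like LRRC42 (0.950), GGH (0.933) and AJUBA (0.922), and PLEC most like IRAK1 (0.943), CDCP1 (0.914) and GGA3 (0.907). No gene of the set appeared in the list of another.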

How the data were processed

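Gene tables of 12 libraries were used. Trimmomatic, STAR, RSEM, DESeq2 1.36.0 and the build GRCh38 are listed, without order, in the submitters' processing notes. The sources used here do not give other versions, the annotation release, the strand setting or any use of molecular identifiers. The deposited expected counts are RSEM's estimates per gene, per the file headers. The TPM values and mean transcript lengths were deposited beside them, per the file headers.

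Expected counts were rounded and analysed with edgeR 4.0.16 in R 4.3.3 (filterByExpr over 4 groups, 12329 genes, TMM scaling, robust quasi-likelihood fit of 1 mean per group, 8 residual degrees of freedom), and p-values were adjusted by the Benjamini-Hochberg method over all genes tested in a comparison. Called means an adjusted p under 0.05, and intervals are 95% from the fit. The scripts were checked on simulated counts. There a 2-fold change between gel and plastic was called for 12.2% of changed genes at 100 nM and 14% at 250 nM. A 4-fold change was called for 70% and 61.7%. The common biological coefficient of variation was 0.299, and median standard errors of log2 changes ran from 0.246 to 0.492 by comparison. For the similarity search log2 CPM had a prior count of 2.

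All genes of the set are named. From the related lists LMNB1 is named, and of each list any gene called between gel and plastic or else the 2 of highest mean CPM. The result of 1 such gene is not reported in the text. The members, lists and tests were chosen with earlier results of these data known. Coordinates and overlaps are from GENCODE 29 and promoters from RefSeq. Symbols were matched for 61528 of 61541 identifiers. Alternatives were other scalings, filters and tools (DESeq2 1.42.0, limma 3.58.1 with voom, and with log2 TPM plus 1 or 0.1), thinning to equal totals, a replicate block, pseudogene counts added to the parent, libraries left out, and, chosen after seeing the data, length and GC content corrections and dose averaged over both substrates.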

Additional observations from a re-analysis of the deposited data

How the results depend on the processing

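No gene of the set was called between gel and plastic under any alternative. With dose on gel the 2 called genes (VIM, NES) became 1 without replicate 1 of both gel groups (NES) and 1 with the length trend removed (VIM). With dose on plastic the 2 (VIM, NES) became 4 with no filter on low counts and 4 with DESeq2 (KRT18 and LMNB2 added in each), 1 with limma on log2(TPM + 1) and 1 on log2(TPM + 0.1) (VIM), and 5 without replicate 1 of both gel groups (KRT8, KRT18 and LMNB2 added). Leaving out 1 library at a time gave 0 to 4: 0 without replicate 3 of plastic at 100 nM or replicate 2 or 3 of plastic at 250 nM, 1 (VIM) without replicate 1 of plastic at 100 nM, and 4 (KRT8 and LMNB2 added) when replicate 1 of gel at 250 nM was left out. Without replicate 2 of plastic at 100 nM the 2 were NES and KRT18, with VIM lost. KRT18 was added without replicate 1 of plastic at 250 nM, and LMNB2 without replicate 1 of gel at 100 nM. The cause was not tested. The dose comparison averaged over substrates stayed within 1.5 times its 4 calls. Over 1544 values of 8 genes in 7 comparisons, 15 lost a call, 18 gained one, 86 changed sign without a call in either, and 0 reversed with a call.

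The labels do not say if replicate numbers pair the libraries. Same-numbered libraries correlated at -0.236 to 0.323 in their deviations from the group mean, and differently numbered libraries at -0.301 to 0.39. Ranges this alike cannot settle the pairing. With a replicate block KRT18 was called with dose on gel (log2 change 0.97, edgeR adjusted p = 0.0346) and on plastic (1.40, adjusted p = 0.0135), and VIM and NES as before. Low counts limit KRT8, LMNB2 and KRT7: thinned to the smallest total, KRT8 had a gel against plastic log2 change of 1.04 at 100 nM in place of 0.18, and a dose change on plastic of 1.47 in place of 0.76. The thinning was a random draw, and neither value was called (edgeR adjusted p = 0.450 and 0.0535).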
